A study of Mus musculus with 4 samples.

Results

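MHC class II genes and their transactivator Ciita were followed in dendritic cells (DC) grown from bone marrow of C57BL/6 mice. The 10 genes were H2-Aa, H2-Ab1, H2-Eb1, H2-DMa, H2-DMb1, H2-DMb2, H2-Oa, H2-Ob, Cd74 and Ciita. The list of genes was written with earlier results of these data known. Their probe sets were found by gene symbol in the annotation, without use of measured values, and 15 of 22626 probe sets carried one of them. Of these, 12 carried a single symbol, 2 were shared by the paralogs H2-DMb1 and H2-DMb2, and the only H2-Ob probe set was also annotated with Gm20506, a predicted gene. H2-DMb1 had no probe set of its own, so its values cannot be separated from those of H2-DMb2.

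Immature DC (2 arrays) were compared with NKT-modulated DC (2 arrays), that is, DC modulated by lipid-reactive natural killer T cells, to ask how this modulation changed the RNA of the DC. Both groups were C57BL/6 bone marrow DC, and the RNA came from CD11c cells according to the design text. CD11c is a DC integrin encoded by Itgax, whose signals were 5442 and 5537 on the immature arrays against 5253 and 4643 on the NKT-modulated arrays. Age, culture time, the stimulus of the NKT cells and whether the arrays of a group came from separate cultures are not stated in the labels, so p-values measure only the spread between arrays, which may be technical.

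MHC class II molecules are pairs of an alpha and a beta chain that present peptides from the endosomal pathway to CD4 T cells. The invariant chain, encoded by Cd74, guides new pairs to endosomes and fills their groove; H2-DM then removes its remnant and edits the bound peptides, and H2-O restrains H2-DM. Ciita is a coactivator that binds no DNA itself and is recruited to class II promoters by RFX, CREB and NF-Y proteins on their X and Y boxes. DC are known to carry large amounts of class II and to shut down Ciita when they mature.

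A promoter module found in 6 of the 10 genes is shown because it occurs both in members that fell (H2-DMb2, and H2-DMb1 by a shared probe set) and in members without a call. RefSeq windows of 300 bases on GRCm38.p6 (250 before to 50 after the gene start) were at hand for 7 of the 10 genes. In 6 of them, AAC stood 23 to 26 bases before TGATTGG on the gene's strand. The capitals mark AAC, which lies in the X box region, and TGATTGG, a Y box that contains the CCAAT core on the other strand.
H2-DMb2, chr17:34145116-34145175, plus strand: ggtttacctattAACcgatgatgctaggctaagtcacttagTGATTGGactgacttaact
H2-DMb1, chr17:34153087-34153146, plus strand: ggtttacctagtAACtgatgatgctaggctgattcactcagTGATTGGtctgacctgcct
H2-Oa, chr17:34092293-34092352, plus strand: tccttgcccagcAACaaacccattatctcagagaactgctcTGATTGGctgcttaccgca
H2-Ob, chr17:34238808-34238864, plus strand: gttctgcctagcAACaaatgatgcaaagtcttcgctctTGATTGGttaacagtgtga
H2-Aa, chr17:34287855-34287914, minus strand: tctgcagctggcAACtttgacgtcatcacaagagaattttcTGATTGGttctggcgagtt
H2-Eb1, chr17:34305766-34305824, plus strand: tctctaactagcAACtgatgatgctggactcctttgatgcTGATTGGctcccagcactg

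The H2-DMb1 and H2-DMb2 stretches matched at 51 of 60 bases. The pair of AAC and TGATTGG at this distance was chosen after the sequences were seen, and 0.46% of all 32851 promoter windows held it on either strand, against 7.82% for TGATTGG alone. Neither of the windows of H2-DMa held it. Of motifs searched on both strands of the whole windows, CCAAT was in 7 of 8 member windows (37.4% of all windows). ACAGATG, an X box core, was in those of H2-Aa and H2-Oa (5.01%), but not within the stretches printed above. TGACG, a CRE core, was in that of H2-Aa (20.8%).

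The genes of the peptide editor H2-DM were lower in NKT-modulated DC, while the classical chains and the invariant chain had changes near 0. H2-DMa fell to 61.4% of its immature level, and H2-DMb2 to 74.6%. By limma with Benjamini-Hochberg adjustment over all probe sets, 3 of the 15 probe sets fell and 0 rose at an adjusted p under 0.05. The 3 were those of H2-DMa, of H2-DMb2 and 1 of the 2 shared by H2-DMb1 and H2-DMb2. The share of member probe sets that fell was 20%, and 5.7% of all probe sets fell (5.36% rose). By annotation, the H2-DMb2 probe set and the shared one both report H2-DMb2, so the 3 calls are not independent. At an unadjusted p under 0.05, 5 member probe sets were lower and 0 higher. The shares of all probe sets and all genes at that unadjusted threshold were not computed, here or for the lists below. The median change of the members was -0.17 on the log2 scale, and that of all probe sets was -0.03. Without NKT-modulated replicate 1 or replicate 2 the count of falls was 1, and without an intensity trend in the variance it was 0. The normalized values of the groups did not overlap for 8 member probe sets (53.3%), no more than the 53.5% of all probe sets.

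**Figure D1:**
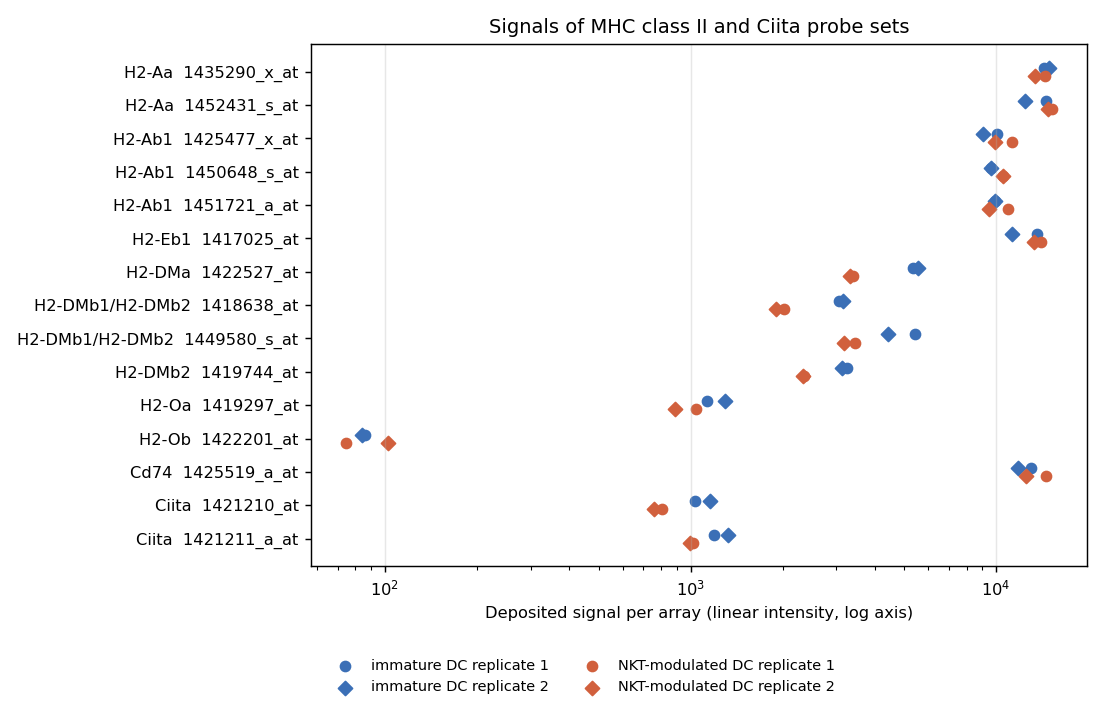
Deposited signal of each member probe set on each of the 4 arrays (linear intensity on a log axis), blue for immature and orange for NKT-modulated DC, circles for replicate 1 and diamonds for replicate 2. The arrays of the H2-DM probe sets separate by group, as for H2-DMa with 5331 and 5529 against 3404 and 3335, whereas those of the classical chains lie close together.

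H2-Ab1, the beta chain of I-A, was measured by 3 probe sets. The signals of 1425477_x_at, the brightest, were 10100 and 9023 on the immature arrays against 11230 and 9895 on the NKT-modulated arrays. Those of 1450648_s_at were 9605 and 9639 against 10500 on each NKT-modulated array, and those of 1451721_a_at were 9942 and 9905 against 10900 and 9474. By these signals the groups overlapped in 2 of the 3 probe sets, and by normalized values in all 3. Their changes were 0.08 ± 0.08, 0.04 ± 0.08 and -0.03 ± 0.08 as log2 values (± SE, n = 2 arrays in each group, which holds throughout). H2-Aa, the alpha chain of I-A, gave 14310 and 14860 against 14470 and 13430 with 1435290_x_at, and 14590 and 12460 against 15250 and 14770 with 1452431_s_at. Its probe sets had changes of opposite sign, -0.17 ± 0.09 and 0.04 ± 0.08, and neither passed the test. Probe set names with s or x mark probes that can also match related sequences.

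H2-Eb1, the beta chain of I-E, gave 13610 and 11300 against 14070 and 13250, with overlapping groups and a change of 0.04 ± 0.09. C57BL/6 mice are known to lack the I-E alpha chain, whose gene H2-Ea gave signals of 137 and 50.2 on the immature arrays against 127 and 154 on the NKT-modulated arrays. Over the 6 probe sets of the classical chains, adjusted p ranged from 0.319 to 0.856. Their 95% intervals ran from -0.4 at the lowest to 0.28 at the highest.

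Cd74, the invariant chain gene, also had a change near 0, with signals of 12970 and 11780 against 14540 and 12530. The groups overlapped and the change was 0.02 ± 0.08 (adjusted p = 0.925, 95% interval -0.17 to 0.2). The probe sets of Cd74 and the classical chains were all within the brightest 1.18% of probe sets on each array, and the highest signal of an array was 16722.2 to 19633. Signals this high may be compressed, and no saturation flags were used here.

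H2-DMa, the alpha chain of the peptide editor, had the largest change among the members in the main setting. Without immature replicate 2 the shared probe set 1449580_s_at was further down, at -0.80 against -0.74 for H2-DMa. The signals of H2-DMa were 5331 and 5529 on the immature arrays against 3404 and 3335 on the NKT-modulated arrays, so that the groups were far apart compared with the spread within them. The change was -0.70 ± 0.08 (limma, adjusted p = 0.00309, 95% interval -0.89 to -0.52). Its adjusted p was 0.0619 without an intensity trend in the variance and under 0.05 in the other 9 of 10 alternatives, down to 0.000581.

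The beta chain of H2-DM is encoded by a pair of genes that lie side by side. The shared probe set 1418638_at gave 3063 and 3159 against 2016 and 1901, and fell by 0.63 ± 0.08 (limma, adjusted p = 0.00674). Its adjusted p was 0.0791 without the trend and 0.0528 and 0.0538 without NKT-modulated replicate 1 and 2, and from 0.00233 in the other alternatives. The other shared probe set, 1449580_s_at, gave 5443 and 4416 against 3449 and 3174. Its change was -0.56 ± 0.14 (adjusted p = 0.0623), with the immature arrays further apart than for any other H2-DM probe set. Without immature replicate 2 the change was -0.80 with adjusted p = 0.00997, and without immature replicate 1 it was -0.34 with adjusted p = 0.106, within a range of 0.00997 to 0.199 over the alternatives.

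H2-DMb2 alone was measured by 1419744_at, with 3254 and 3138 against 2346 and 2338. It fell by 0.42 ± 0.10 (limma, adjusted p = 0.0453), just past the threshold. Its adjusted p was over 0.05 in 6 of 10 alternatives, with a range of 0.0205 to 0.193. Those 6 were cyclic loess, a pseudocount of 64, no intensity trend and leaving out immature replicate 1 or either NKT-modulated array. All 4 H2-DM probe sets were lower in NKT-modulated DC under each of the 10 alternatives. Their groups did not overlap by deposited signals or by normalized values in the main setting. By normalized values, this held for 53.5% of all probe sets.

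**Figure D2:**
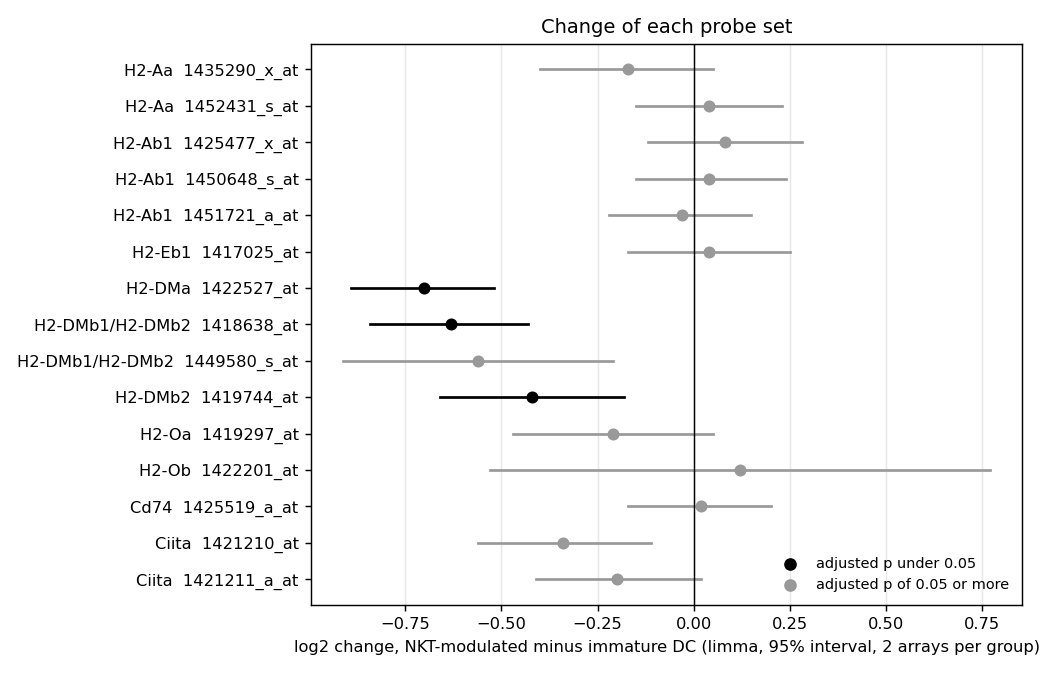
log2 change of each member probe set, NKT-modulated minus immature DC, with the 95% interval from limma (2 arrays per group). Black points passed an adjusted p under 0.05, and these are H2-DMa at -0.70, a probe set shared by H2-DMb1 and H2-DMb2 at -0.63, and H2-DMb2 at -0.42.

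H2-Oa and H2-Ob encode the chains of H2-O, the inhibitor of H2-DM, which is best known from B cells. H2-Oa gave 1131 and 1300 on the immature arrays against 1041 and 887 on the NKT-modulated arrays. Its groups did not overlap, which by normalized values held for 53.5% of all probe sets. Its change of -0.21 ± 0.11 did not pass the test (limma, adjusted p = 0.293). H2-Ob was the dimmest member, with 86.1 and 84.4 against 74.8 and 102, and the NKT-modulated arrays lay on either side of the immature ones. Its change of 0.12 ± 0.27 had a 95% interval from -0.53 to 0.77. Of 12 measured B cell markers, 2 rose and 1 fell, beside 5.99% and 6.9% of all genes. Cd79b, a chain of the B cell receptor complex, rose by 2.47 ± 0.23, from 35.3 and 32 to 270 and 210, and Blnk, a signalling adaptor, by 1.22 ± 0.11. Ighm, the IgM heavy chain gene, fell by 0.99 ± 0.14, while the defining markers Ms4a1 and Cd79a had signals from 45.4 to 48.7 and from 9.09 to 25.1 over the 4 arrays. The summed signal of the list was 2426 to 2909 in immature and 2549 to 2731 in NKT-modulated DC; their part in the H2-O values was not tested.

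Ciita was lower by both of its probe sets, and neither passed the threshold. The signals of 1421210_at were 1036 and 1159 on the immature arrays against 806 and 761 on the NKT-modulated arrays. Those of 1421211_a_at were 1189 and 1327 against 1016 and 994. The groups did not overlap in either, which by normalized values held for 53.5% of all probe sets. The changes were -0.34 ± 0.09 (limma, unadjusted p = 0.0102, adjusted p = 0.0735) and -0.20 ± 0.09 (adjusted p = 0.231). Their 95% intervals were -0.56 to -0.11 and -0.41 to 0.02. The change of 1421210_at lay between -0.48 and -0.27 over the alternatives, with adjusted p from 0.0595 to 0.25.

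**Figure D3:**
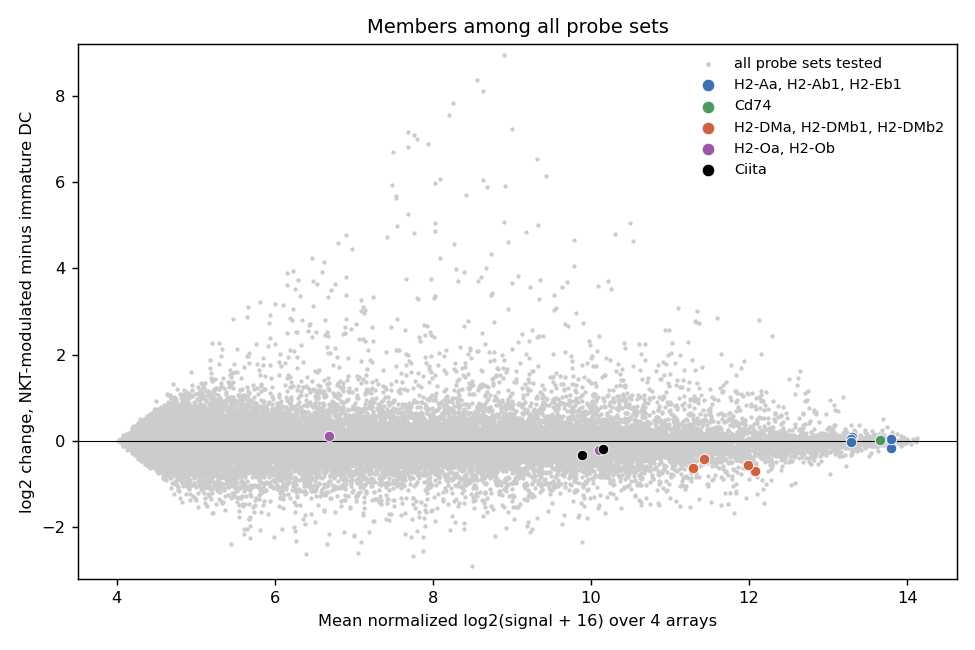
log2 change of all 22626 probe sets against their mean normalized log2(signal + 16) over the 4 arrays, with the members in colour. The H2-DM probe sets lie below the line at 0, at -0.42 to -0.70, and the classical chains and Cd74 sit at the bright end close to it.

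Differences between members within an array, taken here without normalization between arrays, are largely free of a constant scaling factor. They are not free of differences between arrays that depend on intensity. Without normalization the change of Ciita by 1421211_a_at was -0.32 (-0.20 with it). That of H2-Ab1 by 1425477_x_at was 0.14 without and 0.08 with normalization, and that of H2-DMa was -0.69 and -0.70. The sizes of the ratios below therefore depend on leaving normalization out. The log2 ratio of H2-DMa to H2-Ab1 was -0.92 and -0.70 on the immature arrays against -1.72 and -1.56 on the NKT-modulated arrays. The difference between groups, -0.83, was larger than the spread within them, though an exact two-sided permutation test of 2 against 2 arrays cannot go below p = 0.333, the value it gave. H2-Ab1 itself changed little, so this ratio largely restates the fall of H2-DMa. The ratio of H2-DMa to Cd74 moved alike, from -1.28 and -1.09 to -2.09 and -1.90. H2-DMa also fell relative to Ciita by 1421211_a_at, from 2.15 and 2.05 to 1.73 and 1.73. The ratio to 1421210_at, the Ciita probe set with the larger fall, was not computed. Ciita by 1421211_a_at itself fell relative to H2-Ab1, from -3.07 and -2.75 to -3.45 and -3.29. The ratio of H2-Oa to H2-DMa, inhibitor gene over editor gene, was -2.22 and -2.07 against -1.69 and -1.89, higher in both NKT-modulated arrays. Such ratios show unequal change only, since probe sets differ in how brightly they report a transcript; 6 were computed.

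Many, but not all, listed T and NKT cell transcripts were higher in the NKT-modulated arrays. Of 15 measured T and NKT cell markers, 9 rose and 0 fell by limma (10 higher and 0 lower at an unadjusted p under 0.05). Their summed signal was 1269 to 1362 in immature and 6311 to 8126 in NKT-modulated DC. For this and the following marker lists, the shares of all genes were 5.99% that rose and 6.9% that fell. Cd3e, a CD3 chain, gave 10.3 and 7.11 against 395 and 200. Zbtb16, on the same list, gave 94.2 and 95.4 against 125 and 72.7, with a change of 0.13 ± 0.29. Klrb1c was not measured. Of 13 monocyte and macrophage markers, 7 fell and 1 rose, with summed signals of 48010 to 49230 against 47490 to 47500. Of 15 conventional DC markers, 5 rose and 1 fell (56360 to 58610 against 63850 to 71890). Of 9 plasmacytoid DC markers, 2 rose and 2 fell (4257 to 5388 against 5158 to 5446), and of 11 neutrophil markers 3 rose and 0 fell, with 5 and 0 at an unadjusted p under 0.05 (1253 to 1508 against 2298 to 2373). The part of these cells in the falls of H2-DM was not tested; fewer cells of a type and less RNA per cell cannot be told apart in bulk RNA. The Gapdh 3′ to 5′ ratio, a sign of RNA quality, was 1.76 and 1.44 on the immature arrays against 1.87 and 1.98 on the NKT-modulated arrays, and its part was not tested either.

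Genes known to regulate class II transcription rose in part. Of 24 measured, 9 were higher and 1 was lower, and their median change was 0.15. Of all 12393 genes, each by its brightest probe set, 5.99% rose and 6.9% fell, with a median of -0.04. At an unadjusted p under 0.05 by limma, 10 of the list were higher and 3 lower. The 3 were Rfxap, Ifngr1 and Spi1. Ifngr1 and Spi1, chosen after their values were seen, had changes of -0.39 ± 0.13 and -0.51 ± 0.17 (limma, adjusted p = 0.116 and 0.13). Ifng, the cytokine that induces Ciita in many cells, gave 1.76 and 5.66 against 3124 and 1969. It rose by 7.0 ± 0.25 on the log2(signal + 16) scale, a size that depends on the pseudocount (5.25 to 9.18 over the alternatives). T lineage markers rose alongside it, 9 of 15, and which cells made it was not tested. Irf1, a factor that acts on Ciita in the interferon response, rose by 2.72 ± 0.10, from 1088 and 1035 to 6973 and 6777. Prdm1, the gene of BLIMP1, a repressor known to silence Ciita in plasma cells, rose by 2.43 ± 0.12, from 283 and 308 to 1629 and 1376. Irf4 rose by 1.14 ± 0.08, from 2050 and 2368 to 4743 and 4950.

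Of the subunits of RFX, the X box complex, Rfx5 was called higher and Rfxap lower, and Rfxank had no call. They were picked out after their values were seen. Rfx5 rose by 0.63 ± 0.12 (limma, adjusted p = 0.0269), from 839 and 777 to 1155 and 1135. Rfxap, the 1 gene of this list that fell, fell by 0.62 ± 0.14 (limma, adjusted p = 0.0428), from 478 and 561 to 268 and 308. Both calls were lost in some alternatives. Without the intensity trend, limma gave adjusted p = 0.115 for Rfx5 and 0.104 for Rfxap. For Rfxap, limma also gave adjusted p = 0.0543 with cyclic loess and 0.0511 with a pseudocount of 64. Rfx5 had adjusted p = 0.0778, 0.123 and 0.115 without immature replicate 2, NKT-modulated replicate 1 and NKT-modulated replicate 2, within a range of 0.0106 to 0.123 over the alternatives. Rfxap had adjusted p = 0.145, 0.167, 0.17 and 0.0733 without each of the 4 arrays in turn, in the order immature replicate 1 and 2, then NKT-modulated replicate 1 and 2, and its lowest over the alternatives was 0.0159. Rfxank and the NF-Y genes Nfya, Nfyb and Nfyc had changes of 0.14 ± 0.20, 0.08 ± 0.11, 0.07 ± 0.18 and 0.03 ± 0.13.

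Of 15 genes of antigen processing for class II, 1 rose and 0 fell by limma, beside 5.99% and 6.9% of all genes, with 1 higher and 3 lower at an unadjusted p under 0.05 and a median change of -0.02. The rise was of Cst7, a cystatin, by 2.16 ± 0.15, from 150 and 180 to 752 and 638. Ctsh, a cathepsin, had -0.29 ± 0.09 and was the 1 gene called lower when dim probe sets were left out (limma, adjusted p = 0.0358). The changes of Ctsk, a cathepsin, and Tpp1, a lysosomal peptidase, were -0.73 ± 0.25 and -0.26 ± 0.10. Ctss and Ifi30 were chosen after their values were seen, for their known roles. Ctss, the cathepsin that trims the invariant chain, gave 14970 and 13270 against 16460 and 14680, with a change of 0.02 ± 0.07, and Ifi30, which reduces disulfide bonds in endosomes, gave 6801 and 7758 against 7532 and 7526.

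Of 11 measured genes of class II turnover and transport, 3 rose and 0 fell, beside 5.99% and 6.9% of all genes. The counts at an unadjusted p under 0.05 were the same, and the median change was 0.11. Cd83, a maturation marker that protects class II from ubiquitination, rose by 0.94 ± 0.08, from 3023 and 3570 to 6661 and 6180. Cd82, a tetraspanin of class II compartments, rose by 1.02 ± 0.09, and Myo1e, a motor protein, by 1.16 ± 0.19. On leaving out immature replicate 1 or either NKT-modulated array, 2 genes rose, as Myo1e had adjusted p = 0.0705, and 0.0776 and 0.0672 without NKT-modulated replicate 1 and 2, with 0.00239 as its lowest over the alternatives. Ap1m1, a clathrin adaptor subunit, had 0.20 ± 0.10.

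**Figure D4:**
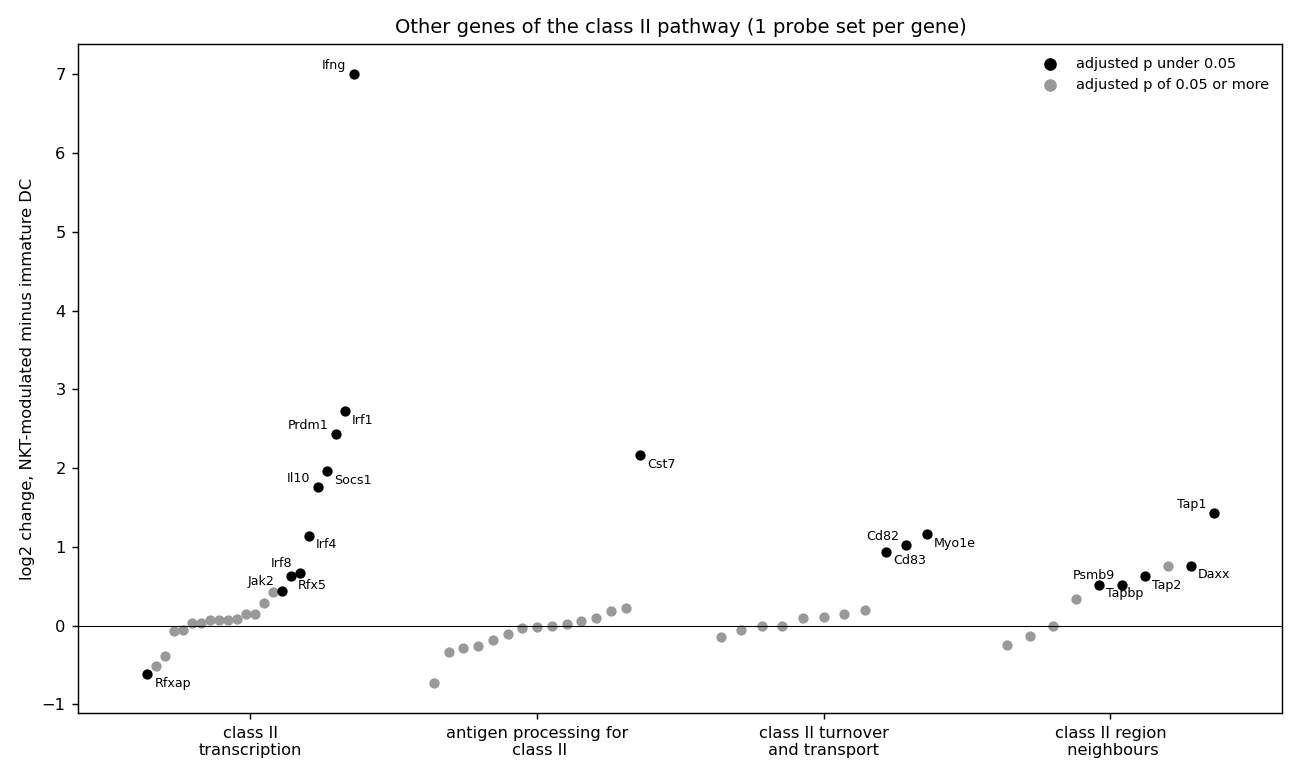
log2 change, NKT-modulated minus immature DC, of the measured genes of 4 pathway lists, each gene by its brightest probe set and sorted within its list. Named black points passed an adjusted p under 0.05, from Ifng at 7.0 to Rfxap at -0.62 in the transcription list, with Cst7 at 2.16 alone in the processing list.

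Some neighbours of the class II genes on the chromosome were higher, among them the gene next to H2-DMb1. In RefSeq order the cluster runs H2-Oa, Brd2, H2-DMa, H2-DMb2, H2-DMb1, Psmb9, Tap1, Psmb8, Tap2, H2-Ob, H2-Ab1, H2-Aa and H2-Eb1. Psmb9, that gene, was chosen after its values were seen; it encodes an immunoproteasome subunit and rose by 0.52 ± 0.08, from 3300 and 4044 to 5421 and 5208. Tap1 and Tap2, the peptide transporter of the class I pathway, rose by 1.43 ± 0.09 and 0.63 ± 0.10. Psmb8 and Brd2, also chosen after their values were seen, had no call. Their changes were -0.01 ± 0.09 and 0.34 ± 0.16 (limma, adjusted p = 0.956 and 0.245). Of 10 measured genes of the list of neighbours, which reaches beyond this stretch, 5 rose and 0 fell, beside 5.99% and 6.9% of all genes. The counts at an unadjusted p under 0.05 were the same, and the median change was 0.52. Tapbp, the gene of tapasin, rose by 0.52 ± 0.08 and Daxx by 0.76 ± 0.12. The count of rises was 3 without immature replicate 1, 2 without NKT-modulated replicate 1, 1 without NKT-modulated replicate 2 and 1 without the intensity trend, and Tap1 had an adjusted p of at most 0.0197 in each alternative. The highest adjusted p of Psmb9, Tap2, Tapbp and Daxx over the alternatives was 0.12, 0.0972, 0.106 and 0.0734.

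Of all genes outside the members, 5 followed H2-DMa most closely over the 4 arrays, by the Euclidean distance of normalized log2 values centred on their mean. These were Top2a, Metrn, Stk38, Cat and Rai1, at distances of 0.0235 to 0.0463 and with changes of -0.69, -0.73, -0.67, -0.73 and -0.68. With 4 arrays in 2 groups, such likeness is a description and largely restates the size of the change.

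**Figure D5:**
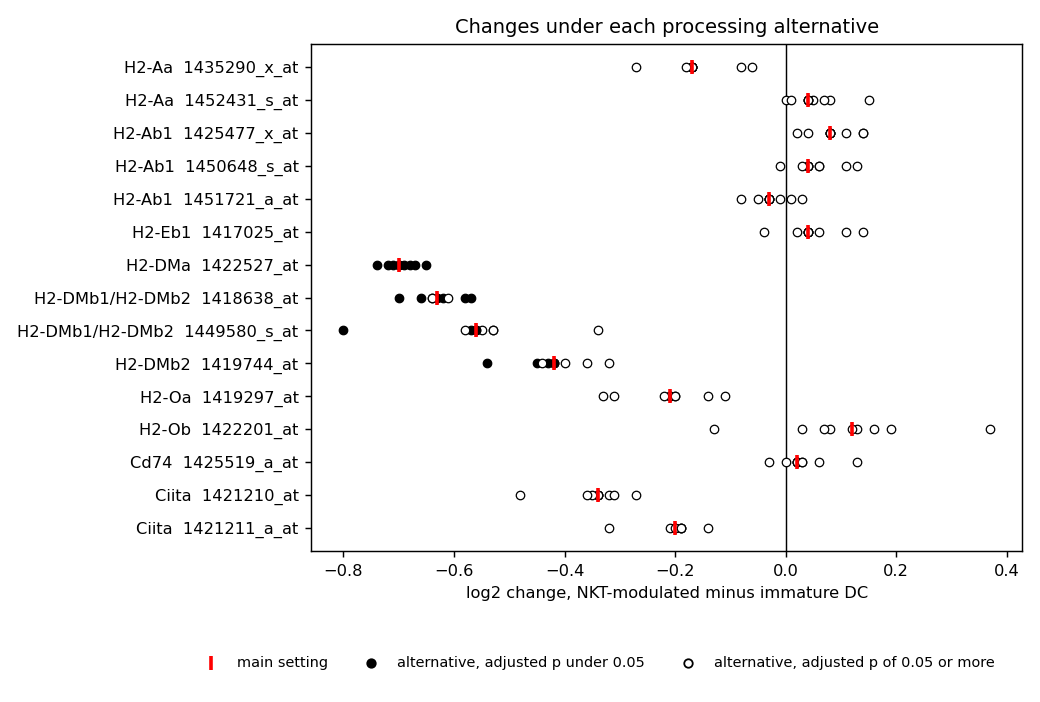
log2 change of each member probe set under the main setting (red bar) and up to 10 alternatives (circles, filled where the adjusted p was under 0.05). H2-DMa stays between -0.74 and -0.65, Ciita stays below 0 without a filled circle, and H2-Eb1, Cd74, H2-Ob and some H2-Ab1 values lie on both sides of 0.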

How the data were processed

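The authors deposited a linear intensity for each probe set on each array, obtained with GCOS (Affymetrix array software) per the submitters' processing notes. Which summary algorithm and scaling were applied is not given in the sources used here. Of 22690 rows, 64 control probe sets were left out. Arrays differed by up to 0.27 in a log2 quartile, so log2(signal + 16) was quantile normalized. Low signals change less on this scale. All 22626 probe sets were tested with limma 3.58.1 in R 4.3.3 (intensity trend, two-sided, 2 residual degrees of freedom), with Benjamini-Hochberg adjustment over all of them, after tests on simulated data. The design text names a larger array of the same family than the deposited table and its annotation fit, speaks of triplicates, and differs from the labels on the number of amplification cycles. Symbols came from the platform annotation, updated by RefSeq gene ID for 20351 of 20380 probe sets with a single symbol. Genes of lists were read from their brightest single-symbol probe set. Up to 4 genes per pathway list, those with the smallest p, are named beside the members; NF-Y genes and RFX subunits complete complexes, markers of other cells were picked from their lists, and other genes are said to be chosen later. Motifs of interferon responses are not reported here. Members, lists and alternatives were chosen with earlier results of these data known.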

Additional observations from a re-analysis of the deposited data

How the results depend on the processing

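The 10 alternatives were no normalization between arrays, cyclic loess, pseudocounts of 1 and 64, no intensity trend, a filter (a signal of at least 100 on at least 2 arrays, 12811 probe sets), and leaving out each array; counts were also taken at an adjusted p under 0.001. No member rose in any of them. Falls of members numbered 0 without the intensity trend and 0 at 0.001, and 1 to 4 on leaving out an array. For class II transcription, 2 genes fell without normalization, 0 with cyclic loess, a pseudocount of 64, no trend or at 0.001, and 0 to 1 without an array; 6 to 8 rose without an array and 4 at 0.001. For antigen processing, 1 gene fell with the filter and 0 to 1 without an array. For turnover and transport, 0 rose at 0.001. For the neighbours, 1 rose without the trend, 1 at 0.001, and 1 to 5 without an array.

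Changes that turned sign were all uncalled. On leaving out each array, H2-Ab1 1450648_s_at ranged from -0.01 to 0.11, 1451721_a_at from -0.08 to 0.01 (0.03 without normalization), H2-Eb1 from -0.04 to 0.11, H2-Ob from -0.13 to 0.37 and Cd74 from -0.03 to 0.06. The cause of these shifts was not tested, beyond that leaving out an array leaves fewer degrees of freedom and assumes that the lone array varies like the other group. H2-Ob did not pass the filter. No paired analysis was possible because the labels give no replicate numbers shared between the groups. The number of arrays limits the precision.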
